A study of Mus musculus with 6 samples.

Results

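This account follows 49 genes of amino acid catabolism, the enzymes that liver cells use to break down amino acids, in mouse hepatocytes exposed to the inflammatory cytokine TNF. The genes were chosen by name, as enzymes of 10 routes: histidine, tryptophan, tyrosine and phenylalanine, lysine, proline, branched-chain amino acids with propionate, methionine and cysteine, the choline side chain, the transaminases of alanine, aspartate and glyoxylate, and serine, threonine and glycine. All 49 were among the 19764 genes of the deposited table, and 48 of them were among the 12293 genes with enough reads to test.

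PolyA RNA was sequenced from primary hepatocytes of Bl6/N mice in 6 libraries, 3 labelled TNF and 3 labelled Control. TNF libraries came from cells given 1 ng/ml TNF for 8 h, and Control libraries from cells given vehicle. Before that, both groups had spent 16 h in starvation medium containing 5 mM glucose. During the 8 h both also received 1 µM corticosterone, a hormone that activates the glucocorticoid receptor (abbreviated GR), together with 10 µM WY-14643, an activator of the lipid-sensing receptor PPARα. Each comparison is therefore of TNF on top of a fasting-like hormone state. Nothing in the labels tells if a replicate is its own animal or culture, so the spread behind the p-values may be technical.

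As background, the liver degrades most amino acids by removing the amino group, which enters the urea cycle, and by turning the carbon skeleton into pyruvate, ketone precursors or intermediates of the citric acid cycle. In fasting, glucocorticoids and glucagon raise many of these enzymes, and the carbon skeletons feed glucose production. Some routes also yield signalling or methyl-donor molecules, such as kynurenine from tryptophan and S-adenosylmethionine from methionine.

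Libraries held 17612060 to 25114289 reads over genes, and levels are CPM (read counts scaled to library size) on the authors' scale. On it 3 reads, about the upper 95% limit for a count of 0 from counting error alone, equal 0.124 to 0.166 CPM. The tested enzyme with the fewest reads in a library, Acmsd, had 109. Changes are differences of log2(CPM + 1), TNF minus Control. TNF and Control libraries with the same replicate number varied together, and limma was therefore run with replicate numbers as blocks (the blocked fit) beside the unpaired fit. "Rose" and "fell" are used of genes with a Benjamini-Hochberg adjusted p below 0.05 in the blocked fit. P-values of the blocked fit measure the spread of the differences within pairs, and not the spread between replicates. Of 8 hepatocyte markers, all were tested. Their summed level was 32180 to 47390 CPM with TNF and 33090 to 50220 CPM in Control. Apoa1 (log2 -0.26), Ttr (log2 -0.11) and Hnf4a (log2 -0.43) among them fell. Of 6 lymphocyte and neutrophil markers, none reached 1 CPM on average and Nkg7 and Ly6g were at 0 in every library. Of 8 macrophage markers 7 averaged under 1 CPM. Cd68 gave nearly all of the macrophage sum, which was 146 to 233 CPM with TNF and 144 to 231 CPM in Control. Endothelial markers (7) summed to 72.0 to 132.5 CPM with TNF and 74.8 to 142.7 CPM in Control, with Stab2 lower. The 5 stellate markers present summed to 17.9 to 42.7 CPM with TNF and 16.7 to 65.3 CPM in Control. Reln, which was lower, gave nearly all of that sum, and Des, Rgs5, Col1a1 and Pdgfrb averaged under 1 CPM. Cholangiocyte markers (5) summed to 32.4 to 54.4 CPM with TNF and 25.3 to 34.9 CPM in Control. Sox9, which was higher (log2 0.58), gave most of that sum. It was at 30.1 to 43.5 CPM with TNF and 21.5 to 24.1 CPM in Control. Krt7, Krt19 and Epcam averaged under 1 CPM, and Spp1 did not pass (log2 -0.20). Whether these markers bear on the enzyme changes was not tested, and fewer hepatocytes and less RNA per hepatocyte cannot be told apart in bulk RNA.

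Amino acid catabolism genes were mostly lower with TNF, by modest amounts. Of the 48 tested genes 30 fell (62.5%), 2 rose and 16 did not pass the test in the blocked fit. Of all 12293 tested genes 11.2% fell and 9.4% rose. Among the widest falls were those of Hal, the enzyme that starts histidine breakdown, and Acmsd, of tryptophan breakdown, to 55.6% and 55.1% of the Control mean. On the log2(CPM + 1) scale Hal, Acmsd, Tdo2, Amdhd1 and Hgd were the 5 genes that fell by 1.5-fold or more. That scale understates low genes, and Bcat2, at 64.7% of its Control mean, was about as low by CPM as Hgd at 64.5%. The 2 genes that rose were Cth, which makes cysteine from cystathionine, and Bckdhb, a subunit of the branched-chain ketoacid dehydrogenase.

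The median change over the 48 genes was -0.23 on the log2 scale, against -0.01 over all tested genes. By pair the median of the 48 was -0.15, -0.32 and -0.16 for replicates 1, 2 and 3, so pair 2 showed the widest difference. Changes were negative in 44 of the 48, against 53.9% of all tested genes. In 37 of the 48 (77.1%) TNF was lower in all 3 pairs, a pattern found in 27.7% of all tested genes. In 10 of the 48 (20.8%) all 3 TNF libraries lay below all 3 Control libraries, which held for 6.66% of all tested genes. These 10 were Hal, Amdhd1, Kmo, Acmsd, Hgd, Aldh4a1, Bcat2, Mccc2, Dmgdh and Gpt. In Bckdhb all 3 TNF libraries lay above all 3 Control libraries. For the other 37 tested genes the groups overlapped.

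The unpaired limma fit, which counts the spread between replicates as error, was the main test planned, with the blocked fit as an alternative. It called 0 of the 48, against 0.431% of all tested genes. At an unadjusted p below 0.05 it had 12 lower and 0 higher, against 4.31% lower and 4.44% higher of all tested genes, and limma-voom without the block also called 0. Hal came nearest, with an unpaired adjusted p of 0.0503 in limma. Each of the 32 genes past the blocked threshold moved the same way in all 3 pairs. With the block, 23 of the 32 kept their call whichever replicate number was left out. The other 9 are given with their values below. Blocked SEs lean on a variance shared between genes. In 8 of the 32 the SE from a gene's own 3 pairs was more than 1.5 times the blocked SE. Among them were Hpd (0.16 against 0.07 on the log2 scale), Uroc1 (0.18 against 0.09), Tdo2 (0.09 against 0.05) and Amdhd1 (0.14 against 0.08). Aldh4a1, Mat1a, Gnmt and Ahcy were the rest.

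**Figure D1:**
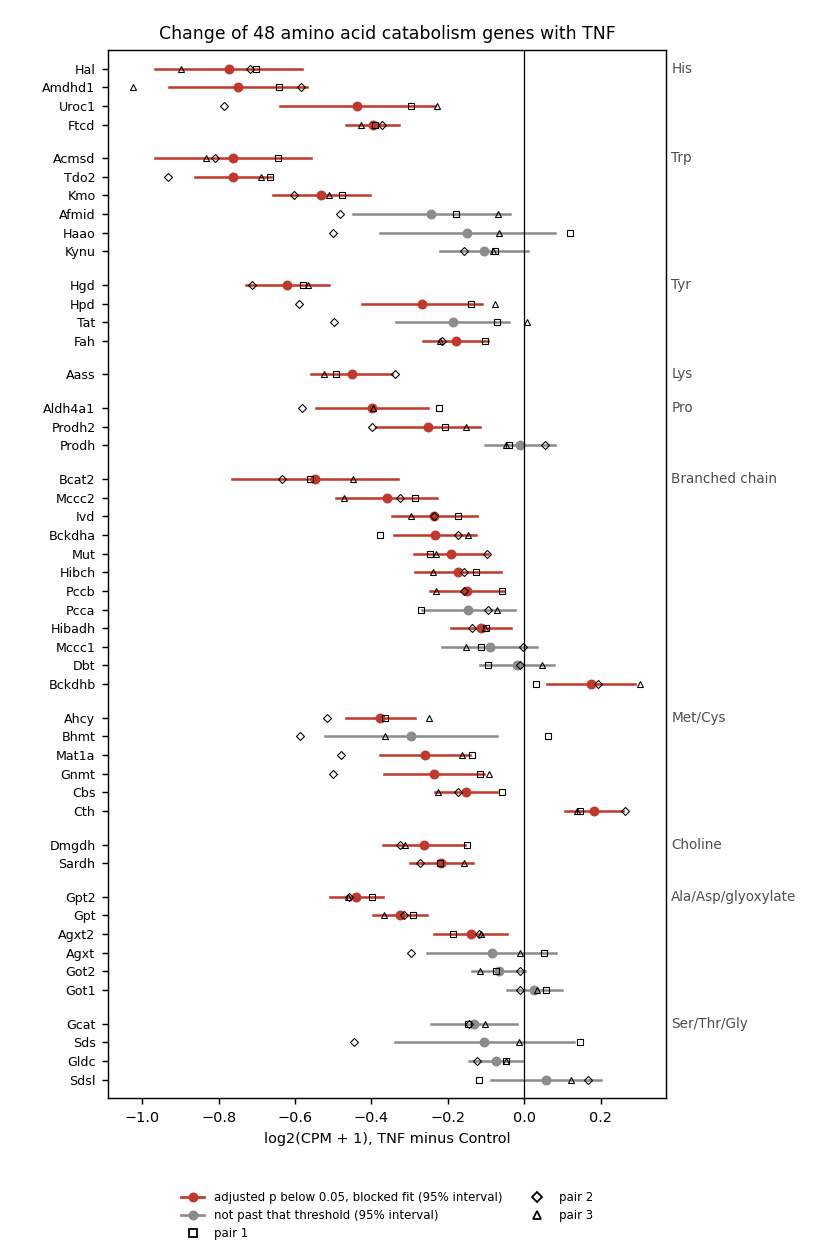
Change of each of the 48 tested genes (rows, grouped by route) on the x axis as log2(CPM + 1), TNF minus Control. Filled points with lines are the estimate and its 95% interval in the blocked fit, red where the adjusted p is below 0.05, and open symbols are the 3 pairs. Points lie left of 0 for 44 genes, with the histidine genes farthest left as a group (median -0.59) and Cth and Bckdhb in red to the right.

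**Figure D2:**
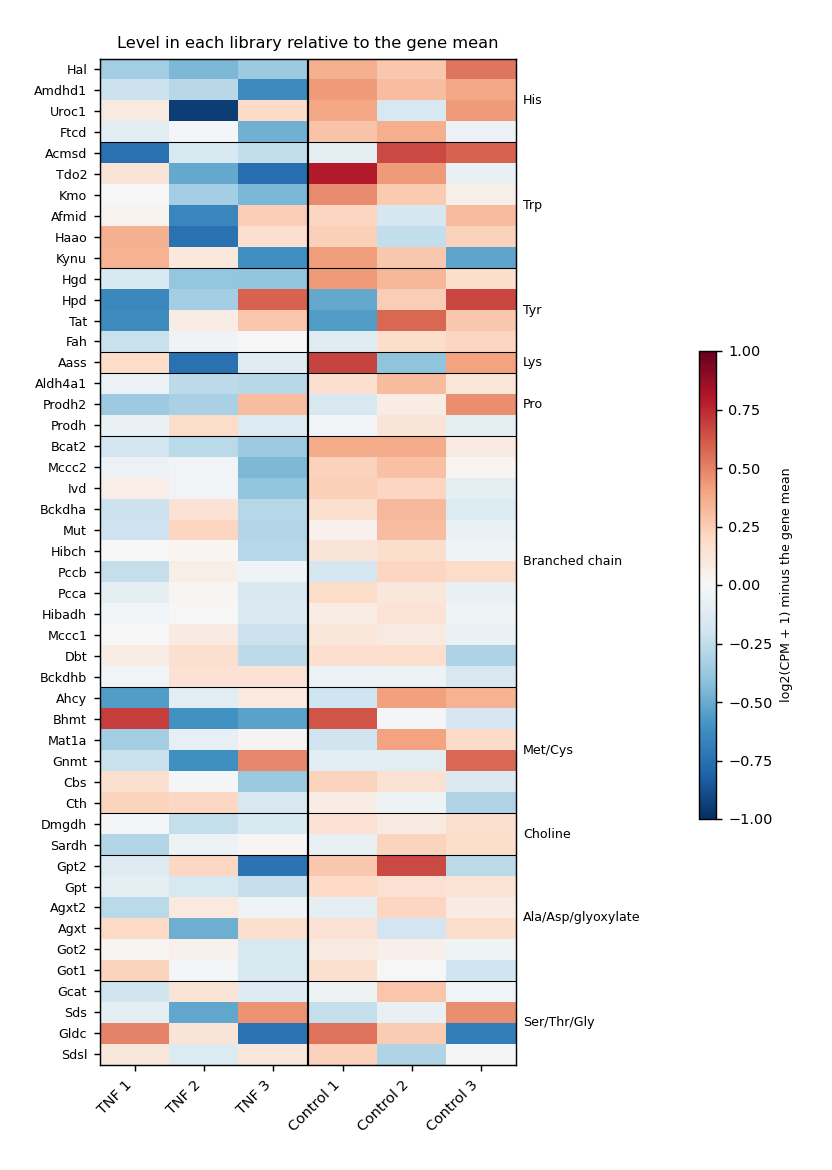
Level of each tested gene (rows) in each library (columns, TNF left of Control) as log2(CPM + 1) minus the gene's mean over the 6 libraries, in colour. Hal, Amdhd1 and Hgd are blue in all TNF libraries and red in all Control libraries, while Gldc and Hpd differ more between replicate numbers than between groups.

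Promoter letters are shown for the 4 histidine genes, which all fell, for Tdo2, the first step of tryptophan breakdown, and for Bckdha and Bckdhb, subunits of 1 enzyme that moved in opposite directions. Each window is the 250 bases before the gene start, 5′ to 3′ on the gene's strand, from RefSeq on GRCm38.p6, with chromosome positions in that build. Capitals mark matches, on either strand, to 1 of 6 motifs: the GR half-site AGAACA, the HNF4 motif CAAAGTCCA, the C/EBP palindrome TTGCGCAA, the TATA box TATAAA, the CCAAT box CCAAT, and the kappa-B consensus bound by NF-κB. No matches overlapped.
Hal (chr10:93488518-93488767, plus strand): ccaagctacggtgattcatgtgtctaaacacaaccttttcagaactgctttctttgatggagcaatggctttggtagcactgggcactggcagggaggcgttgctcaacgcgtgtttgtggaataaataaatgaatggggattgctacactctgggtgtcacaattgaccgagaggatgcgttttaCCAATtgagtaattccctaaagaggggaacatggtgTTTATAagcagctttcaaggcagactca
Uroc1 (chr6:90333039-90333288, plus strand): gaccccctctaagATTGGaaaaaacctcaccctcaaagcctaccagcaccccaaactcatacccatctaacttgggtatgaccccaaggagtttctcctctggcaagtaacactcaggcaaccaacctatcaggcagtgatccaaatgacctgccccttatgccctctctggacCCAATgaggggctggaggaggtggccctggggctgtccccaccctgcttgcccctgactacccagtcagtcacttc
Amdhd1 (chr10:93540034-93540283, minus strand): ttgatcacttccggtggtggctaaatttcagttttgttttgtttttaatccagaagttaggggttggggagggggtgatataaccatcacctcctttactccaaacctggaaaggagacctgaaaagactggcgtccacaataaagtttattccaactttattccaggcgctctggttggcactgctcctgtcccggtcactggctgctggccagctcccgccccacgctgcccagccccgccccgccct
Ftcd (chr10:76575398-76575647, plus strand): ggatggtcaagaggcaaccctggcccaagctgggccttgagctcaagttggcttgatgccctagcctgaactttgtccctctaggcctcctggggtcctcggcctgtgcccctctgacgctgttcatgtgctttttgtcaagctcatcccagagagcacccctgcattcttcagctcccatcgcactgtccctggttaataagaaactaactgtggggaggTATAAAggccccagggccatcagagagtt
Tdo2 (chr3:81975729-81975978, minus strand): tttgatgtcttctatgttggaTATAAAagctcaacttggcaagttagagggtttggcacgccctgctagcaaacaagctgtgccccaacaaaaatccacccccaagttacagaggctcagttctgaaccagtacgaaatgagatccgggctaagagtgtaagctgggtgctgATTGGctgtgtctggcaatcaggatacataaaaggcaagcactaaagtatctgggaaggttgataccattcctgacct
Bckdha (chr7:25658762-25659011, minus strand): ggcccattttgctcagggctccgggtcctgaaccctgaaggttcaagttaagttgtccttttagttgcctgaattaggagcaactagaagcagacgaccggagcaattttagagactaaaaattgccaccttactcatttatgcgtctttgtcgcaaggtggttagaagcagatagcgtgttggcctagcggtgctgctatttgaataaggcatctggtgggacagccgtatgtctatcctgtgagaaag
Bckdhb (chr9:83924887-83925136, plus strand): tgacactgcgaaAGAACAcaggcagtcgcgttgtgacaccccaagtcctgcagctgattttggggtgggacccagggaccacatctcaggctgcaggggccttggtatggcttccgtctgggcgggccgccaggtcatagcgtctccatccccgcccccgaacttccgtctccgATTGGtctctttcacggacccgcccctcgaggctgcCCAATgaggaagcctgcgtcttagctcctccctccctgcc
The Hal window held a CCAAT box at -64 to -60 and a TATA box at -28 to -23, counted from the gene start, and the Ftcd window a TATA box at -29 to -24. Uroc1 had CCAAT boxes at -237 to -233 and -76 to -72. The Tdo2 window held a TATA box at -229 to -224 and a CCAAT box at -78 to -74. In Bckdhb there was a GR half-site at -238 to -233 and CCAAT boxes at -76 to -72 and -40 to -36. The Amdhd1 and Bckdha windows held none of the 6. Windows were matched for 40 of the 49 genes, and not for Kynu, Sds, Sdsl, Gpt, Dbt, Mut, Cth, Mat1a and Tdh. CCAAT boxes were in 20 of the 40 windows (13 of 27 genes that fell and 7 of the 13 others) and in 33.8% of all 32851 windows. TATA boxes were in 6 of the 40 (5 of 27 that fell and 1 of the 13 others) and in 12.4% of all windows. The GR half-site was in 5 of the 40 (1 of 27 genes that fell and 4 of the 13 others) and in 16.1% of all windows. The kappa-B consensus was in 2 of the 40 (0 of 27 that fell and 2 of the 13 others) and in 3.9% of all windows. The HNF4 motif was in 1 of the 40, a gene that fell, and the C/EBP palindrome in 0, against 0.384% and 0.164% of all windows. These are matches of letters in a short window only, and differences between genes that fell and the others were not tested.

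All 4 histidine enzymes fell. Hal (histidine ammonia-lyase, NM_010401; chr10:93488768-93516743, plus strand, mm10) releases ammonia from histidine in the first step. It was at 8.81, 8.16 and 8.67 CPM in TNF 1, 2 and 3, against 14.97, 14.1 and 17.0 CPM in Control 1, 2 and 3. Every TNF library lay below every Control library. Amdhd1 (imidazolonepropionase, NM_027908; chr10:93523338-93540033, minus strand), which opens the imidazolone ring in the third step, was at 19.4, 18.5 and 14.2 CPM in the TNF libraries, against 30.8, 28.3 and 29.98 CPM in the Control libraries. Here too the groups did not overlap. Means were 8.55 ± 0.344 CPM with TNF and 15.4 ± 1.52 CPM in Control for Hal, and 17.4 ± 2.75 CPM with TNF and 29.7 ± 1.31 CPM in Control for Amdhd1 (SD, n = 3 each).

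Uroc1, the urocanate hydratase of the second step (chr6:90333289-90364548, plus strand), was at 23.4, 10.9 and 25.2 CPM in TNF 1, 2 and 3, against 28.9, 19.5 and 29.7 CPM in Control 1, 2 and 3. Both replicate 2 libraries were low and the groups overlapped. Ftcd, which moves the formimino group to tetrahydrofolate in the last step (chr10:76575648-76590338, plus strand), was at 161, 172 and 124 CPM in the TNF libraries, against 211, 223 and 166 CPM in the Control libraries. TNF 2 lay above Control 3, so the groups overlapped although each pair was lower with TNF. Blocked log2 changes were -0.77 (SE 0.09) for Hal, -0.75 (SE 0.08) for Amdhd1, -0.44 (SE 0.09) for Uroc1 and -0.40 (SE 0.03) for Ftcd. In limma the blocked adjusted p was 2.47e-05, 1.88e-05, 0.00416 and 1.01e-06 in that order, and the unpaired one 0.0503, 0.0735, 0.884 and 0.507. Hal and Amdhd1 lie next to each other on chromosome 10, end to end with 6594 bases between them and no other gene of the table in between.

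**Figure D3:**
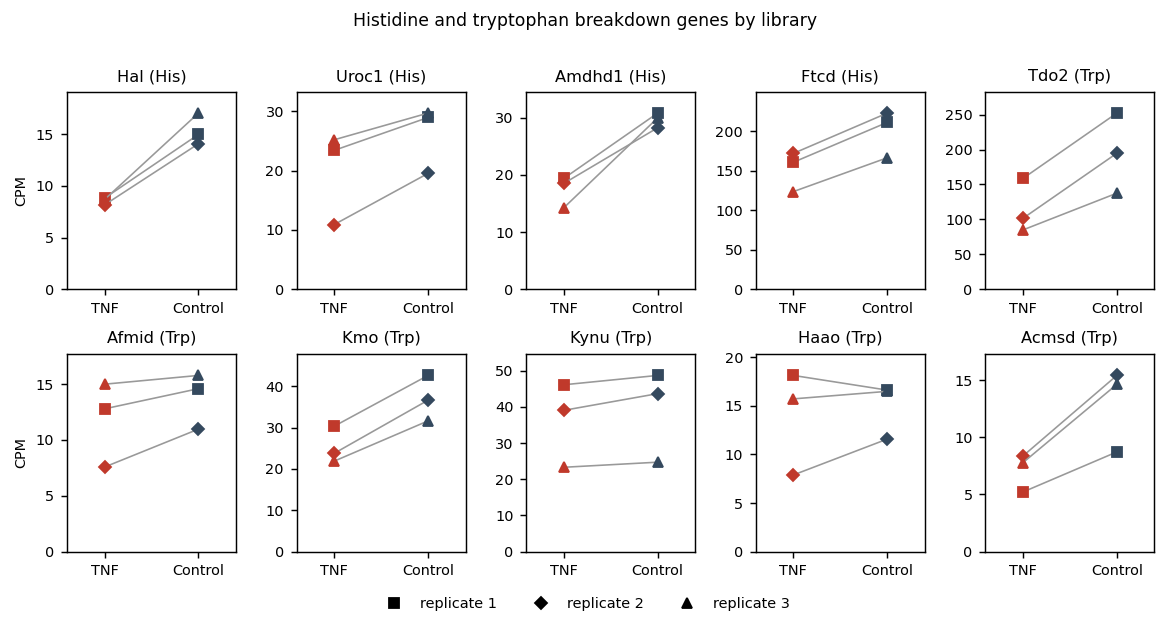
CPM of the 4 histidine and 6 tryptophan genes (panels) in each library, TNF left of Control, with a line joining libraries of the same replicate number. All 3 lines run lower at TNF in each panel but that of Haao, and for Hal, Amdhd1, Kmo and Acmsd the TNF points lie below all Control points.

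In tryptophan breakdown 3 of 6 enzymes fell, and they stand at the entry and at branch points of the kynurenine pathway. Tdo2, the dioxygenase that opens tryptophan and controls entry in liver (NM_019911; chr3:81958414-81975728, minus strand), was at 159, 101 and 84.9 CPM in TNF 1, 2 and 3, against 252, 195 and 137 CPM in Control 1, 2 and 3. Levels differed between replicate numbers by as much as between groups, so TNF 1 lay above Control 3. Each pair was lower with TNF, with log2 differences of -0.67, -0.93 and -0.69. Kmo, which hydroxylates kynurenine on the outer mitochondrial membrane, was at 30.3, 23.8 and 21.9 CPM in the TNF libraries, against 42.6, 36.7 and 31.6 CPM in the Control libraries. Acmsd, which steers an intermediate away from NAD synthesis toward full oxidation, was at 5.22, 8.37 and 7.79 CPM in TNF 1, 2 and 3, against 8.73, 15.4 and 14.6 CPM in Control 1, 2 and 3. For both, every TNF library lay below every Control library. Acmsd was counted over 24204 of its 38152 bases.

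The log2 changes were -0.76 (SE 0.05) for Tdo2, -0.76 (SE 0.09) for Acmsd and -0.53 (SE 0.06) for Kmo. Blocked adjusted p in limma were 5.61e-08, 4.59e-05 and 1.71e-05, and unpaired ones 0.46, 0.382 and 0.295. From its own 3 pairs the SE of Tdo2 was 0.09 on the log2 scale. The enzymes between these steps did not pass. Afmid, the formamidase of the second step, had a log2 change of -0.24 and a blocked adjusted p of 0.0949 in limma. Kynu, kynureninase, had -0.11 (0.199), and Haao, which opens the ring of 3-hydroxyanthranilate, had -0.15 (0.375), with TNF 1 above Control 1. The ratio of Tdo2 to Kynu was 3.44, 2.598 and 3.64 in TNF 1, 2 and 3, against 5.18, 4.46 and 5.56 in Control 1, 2 and 3. All ratios between genes given here were chosen after their values were seen, so they are descriptions without a test.

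In tyrosine breakdown 3 of 4 genes fell, and the first enzyme, Tat, did not pass the test. The log2 change of Tat (-0.19) was about that of Fah, the last step (-0.18), so no order by step is read here. Tat, the transaminase that starts the route and a classic glucocorticoid-induced liver gene, was at 90.9, 149 and 172 CPM in TNF 1, 2 and 3, against 95.6, 211 and 171 CPM in Control 1, 2 and 3. Only pair 2 differed by much (-0.07, -0.50 and 0.01 on the log2 scale by pair). Its log2 change was -0.19 (SE 0.07), with a blocked adjusted p of 0.0713 in limma. Without replicate 1 or replicate 3 that p was 5.35e-05 or 0.00107, and without replicate 2 it was 0.716. Hgd, homogentisate dioxygenase (NM_013547; chr16:37580153-37632026, plus strand), was at 42.5, 36.1 and 35.9 CPM in the TNF libraries, against 64.0, 59.9 and 53.7 CPM in the Control libraries. All TNF libraries lay below all Control libraries, at 64.5% of the Control mean. Hpd, which makes homogentisate, was at 48.2, 59.8 and 115 CPM in TNF 1, 2 and 3, against 53.2, 90.4 and 121 CPM in Control 1, 2 and 3. Replicate 3 was high in both groups and the groups overlapped. Fah, whose loss causes tyrosinaemia type I in humans, was at 83.7, 95.5 and 97.5 CPM in the TNF libraries, against 90.0, 111 and 114 CPM in the Control libraries, with overlap.

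Hgd fell (log2 -0.62, SE 0.05, blocked adjusted p 8.38e-07, unpaired 0.0641, limma). Hpd also fell (log2 -0.27, SE 0.07, blocked adjusted p 0.0177, limma), but without replicate 2 its blocked adjusted p was 0.19. The fall of Fah was smaller (log2 -0.18, SE 0.04, blocked adjusted p 0.00439, limma).

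Lysine and proline breakdown also held genes that fell. Aass, the bifunctional enzyme of the first lysine steps, was at 63.5, 32.9 and 51.1 CPM in TNF 1, 2 and 3, against 89.8, 41.9 and 74.0 CPM in Control 1, 2 and 3. Replicate 2 was lowest in both groups, and the fall was seen within pairs (-0.49, -0.34 and -0.52). Aldh4a1, which converts the proline product pyrroline-5-carboxylate to glutamate, was at 31.0, 26.7 and 26.5 CPM in the TNF libraries, against 36.3, 40.5 and 35.2 CPM in the Control libraries, without overlap. Prodh2, which acts on hydroxyproline, was at 23.9, 24.6 and 38.7 CPM in TNF 1, 2 and 3, against 27.8, 32.8 and 43.2 CPM in Control 1, 2 and 3, with overlap. Prodh, proline dehydrogenase, had a log2 change of -0.01 and did not pass (blocked adjusted p 0.894, limma). Log2 changes were -0.45 (SE 0.05) for Aass, -0.40 (SE 0.07) for Aldh4a1 and -0.25 (SE 0.06) for Prodh2. Their blocked adjusted p in limma were 1.38e-05, 0.000697 and 0.0107, and that of Prodh2 was 0.118 without replicate 2.

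The branched-chain and propionate genes, 12 in number, moved little: 8 fell, Bckdhb rose and 3 did not pass, with a median of -0.16. The widest change was in Bcat2, the mitochondrial transaminase of the first step, at 6.27, 5.90 and 5.47 CPM in TNF 1, 2 and 3, against 9.72, 9.72 and 7.84 CPM in Control 1, 2 and 3. Every TNF library lay below every Control library. Bcat2 was counted over 14534 of its 19558 bases. The dehydrogenase that commits the ketoacids to breakdown has the E1 subunits Bckdha and Bckdhb and the E2 subunit Dbt. Bckdha was at 57.8, 74.6 and 55.1 CPM in the TNF libraries, against 75.4, 84.3 and 61.2 CPM in the Control libraries. Bckdhb was at 54.0, 60.9 and 61.0 CPM in the TNF libraries, against 52.9, 53.1 and 49.2 CPM in the Control libraries. Bckdha was lower in each TNF library than in its Control partner, and Bckdhb was higher in each, with no overlap between groups for Bckdhb. Dbt had a log2 change of -0.02 and did not pass (blocked adjusted p 0.817, limma).

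Bcat2 fell (log2 -0.55, SE 0.10, blocked adjusted p 0.00129, limma), as did Bckdha (log2 -0.23, SE 0.05, 0.00356). Bckdhb rose (log2 0.18, SE 0.05, blocked adjusted p 0.0319, limma). Without replicate 2 or replicate 3 its blocked adjusted p was 0.117 or 0.238. The ratio of Bckdha to Bckdhb was 1.07, 1.23 and 0.904 in TNF 1, 2 and 3, against 1.43, 1.59 and 1.24 in Control 1, 2 and 3. The groups did not overlap, although TNF 2 and Control 3 lay close together.

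Of the leucine enzymes, Ivd, isovaleryl-CoA dehydrogenase, was at 41.9, 39.3 and 30.1 CPM in TNF 1, 2 and 3, against 47.4, 46.4 and 37.2 CPM in Control 1, 2 and 3. Mccc2, the beta subunit of methylcrotonyl-CoA carboxylase, was at 29.1, 29.7 and 21.9 CPM in the TNF libraries, against 35.7, 37.5 and 30.8 CPM in the Control libraries. Mccc2 libraries did not overlap between groups, while those of Ivd did. The alpha subunit gene Mccc1 had a log2 change of -0.09 and did not pass (blocked adjusted p 0.318, limma), and the ratio of Mccc2 to Mccc1 was 0.786 to 0.893 with TNF and 0.991 to 1.08 in Control. Ivd (log2 -0.24) and Mccc2 (log2 -0.36) fell, with blocked adjusted p of 0.00494 and 0.000655 in limma.

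In valine and propionate breakdown 4 of 5 genes fell, with log2 changes of -0.19 to -0.11. Hibch, which frees 3-hydroxyisobutyrate, was at 39.0, 39.6 and 31.8 CPM in TNF 1, 2 and 3, against 42.6, 44.3 and 37.8 CPM in Control 1, 2 and 3. Hibadh, the next dehydrogenase, was at 95.9, 97.8 and 88.2 CPM in the TNF libraries, against 103, 108 and 94.7 CPM in the Control libraries. Pccb, the beta subunit of propionyl-CoA carboxylase, was at 58.2, 71.4 and 66.5 CPM in TNF 1, 2 and 3, against 60.7, 79.8 and 78.2 CPM in Control 1, 2 and 3. In all of these the groups overlapped and the pairs carried the difference. Mut, the vitamin B12-dependent methylmalonyl-CoA mutase, was at 56.8, 76.4 and 53.3 CPM in the TNF libraries, against 67.6, 81.8 and 62.7 CPM in the Control libraries, again with overlap. Log2 changes were -0.17 for Hibch, -0.11 for Hibadh, -0.15 for Pccb and -0.19 for Mut, with blocked adjusted p of 0.0305, 0.043, 0.0297 and 0.00735 in limma. Leaving out 1 replicate number raised the blocked adjusted p in limma to 0.0931 (replicate 2) and 0.157 (replicate 3) for Hibch, and to 0.112 and 0.205 for Pccb. For Hibadh it was 0.0987, 0.184 and 0.0978 without replicates 1, 2 and 3. The alpha subunit gene Pcca had a log2 change of -0.15 and did not pass (blocked adjusted p 0.0855, limma).

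**Figure D4:**
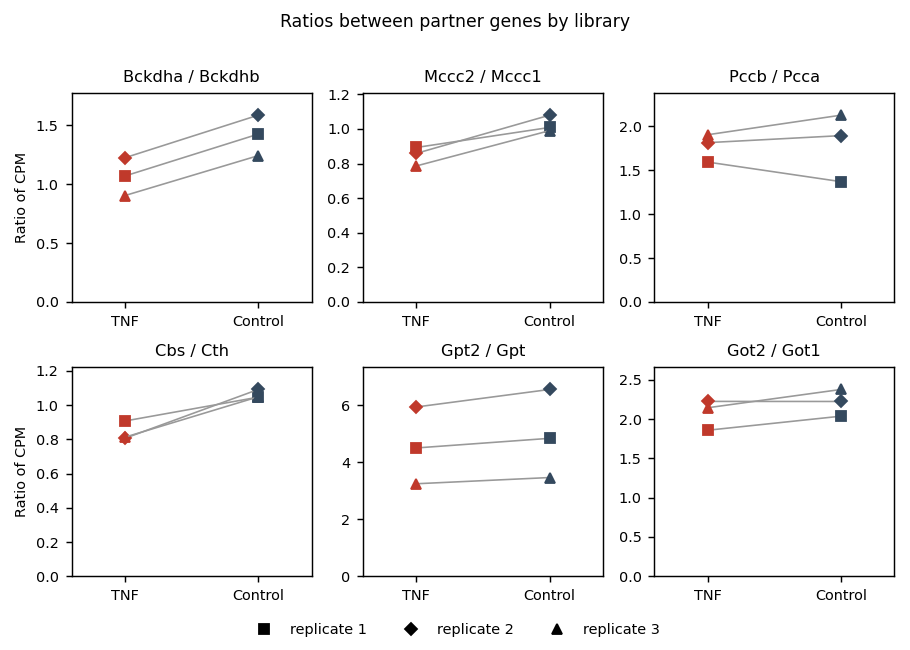
Ratio of CPM between partner genes (panels) in each library, TNF left of Control, with lines joining libraries of the same replicate number. The ratios of Bckdha to Bckdhb, Mccc2 to Mccc1 and Cbs to Cth lie lower in all TNF libraries than in all Control libraries, while the ratio of Pccb to Pcca and that of Got2 to Got1 are lower in 2 of 3 pairs.

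In the methionine cycle and transsulfuration 4 of 6 genes fell and 1 rose. Mat1a, which makes S-adenosylmethionine in adult liver, was at 86.0, 103 and 111 CPM in TNF 1, 2 and 3, against 94.6, 144 and 124 CPM in Control 1, 2 and 3. Gnmt, which uses up its methyl group on glycine, was at 114, 86.6 and 186 CPM in the TNF libraries, against 123, 123 and 199 CPM in the Control libraries. Both differed most in pair 2. Ahcy, which splits the product S-adenosylhomocysteine, was at 229, 315 and 362 CPM in TNF 1, 2 and 3, against 295, 451 and 431 CPM in Control 1, 2 and 3. It was lowest in replicate 1 of both groups, and each pair was lower with TNF (-0.36, -0.52 and -0.25). Cbs and Cth carry homocysteine on to cysteine. Cbs was at 180.2, 159 and 124 CPM in the TNF libraries, against 188, 179 and 145 CPM in the Control libraries. Cth was at 199, 197 and 152 CPM in the TNF libraries, against 179, 164 and 138 CPM in the Control libraries. Each pair was lower for Cbs and higher for Cth, with overlap between the groups for both. The ratio of Cbs to Cth was 0.806 to 0.908 with TNF and 1.05 to 1.09 in Control.

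Log2 changes were -0.38 (SE 0.04) for Ahcy, -0.26 (SE 0.06) for Mat1a, -0.24 (SE 0.06) for Gnmt, -0.15 (SE 0.04) for Cbs and 0.18 (SE 0.04) for Cth. Blocked adjusted p in limma were 1.88e-05, 0.00369, 0.0127, 0.00992 and 0.00206 in that order. That of Gnmt was 0.112 without replicate 2 and that of Cbs 0.0756 without replicate 3. Bhmt, which remethylates homocysteine from betaine, had a log2 change of -0.30 with pairs at 0.06, -0.59 and -0.36 and did not pass (blocked adjusted p 0.0607, limma). The gene annotation lists a processed pseudogene of Bhmt, Bhmt-ps1, so its reads may be shared.

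The choline side chain yields dimethylglycine and sarcosine, which mitochondria turn into glycine, and both of its genes fell. Dmgdh, dimethylglycine dehydrogenase, was at 53.0, 45.2 and 48.1 CPM in TNF 1, 2 and 3, against 59.0, 56.8 and 59.9 CPM in Control 1, 2 and 3, without overlap. Sardh, sarcosine dehydrogenase, was at 85.9, 102 and 106 CPM in the TNF libraries, against 100.2, 123 and 119 CPM in the Control libraries, with overlap. Their log2 changes were -0.26 (SE 0.05) and -0.22 (SE 0.04), with blocked adjusted p of 0.00153 and 0.000862 in limma. Dmgdh was counted over 65312 of its 78388 bases.

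Among the transaminases both alanine aminotransferases fell and both aspartate aminotransferases did not pass. Gpt, the cytosolic alanine enzyme measured in blood as ALT, was at 168, 161 and 153 CPM in TNF 1, 2 and 3, against 206, 200.3 and 198 CPM in Control 1, 2 and 3. Replicates were close, and every TNF library lay below every Control library. Gpt2, the mitochondrial form, was at 758, 954 and 497 CPM in the TNF libraries, against 998, 1312 and 685 CPM in the Control libraries. Replicates of Gpt2 spread far more than those of Gpt, and the groups overlapped. Within pairs the log2 change of Gpt2 was -0.40, -0.46 and -0.46, and that of Gpt -0.29, -0.31 and -0.37. Gpt fell (log2 -0.32, SE 0.03, blocked adjusted p 7.81e-06, unpaired 0.102, limma), as did Gpt2 (log2 -0.44, SE 0.03, 3.29e-07 and 0.864). Agxt2, which transfers amino groups to glyoxylate in mitochondria, was at 46.8, 60.7 and 55.4 CPM in TNF 1, 2 and 3, against 53.4, 66.0 and 60.1 CPM in Control 1, 2 and 3. It fell (log2 -0.14, blocked adjusted p 0.0392, limma), a call lost whichever replicate was left out, at 0.189, 0.105 and 0.0731 without replicates 1, 2 and 3. Agxt, the glyoxylate-detoxifying enzyme mutated in primary hyperoxaluria, was at 24.6, 14.9 and 24.0 CPM in the TNF libraries, against 23.7, 18.5 and 24.2 CPM in the Control libraries. Its groups overlapped, and it did not pass (log2 -0.08, blocked adjusted p 0.508, limma). Got1 and Got2, of the malate-aspartate shuttle, had log2 changes of 0.03 and -0.07 (blocked adjusted p 0.646 and 0.174, limma). The annotation lists a processed pseudogene of Got2, Got2-ps1.

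None of the 4 tested serine, threonine and glycine genes passed either limma fit or limma-voom without the block, and 0 were past an unadjusted p of 0.05 in the unpaired fit. In the blocked fit Gldc and Gcat were past an unadjusted p of 0.05, both lower. Of all 12293 tested genes 2150 were lower and 1741 higher at that threshold in the blocked fit. Limma-voom with the block called 0 of the 4. Sds, the serine dehydratase that makes pyruvate from serine and is known as a fasting-induced liver enzyme, was at 11.1, 7.99 and 16.6 CPM in TNF 1, 2 and 3, against 9.89, 11.3 and 16.8 CPM in Control 1, 2 and 3. Replicate 3 was highest in both groups, and the pairs differed in sign (0.15, -0.45 and -0.01). Gldc, the decarboxylase of the glycine cleavage system, was at 307, 237 and 129.9 CPM in the TNF libraries, against 318, 259 and 134 CPM in the Control libraries. Its libraries differed by replicate number, with replicate 1 highest and replicate 3 lowest in both groups, and little by treatment. The log2 change was -0.10 (SE 0.11) for Sds and -0.07 (SE 0.03) for Gldc, with blocked adjusted p of 0.563 and 0.14 in limma. Sdsl, a paralog next to Sds on chromosome 5, and Gcat, which splits the threonine product aminoketobutyrate, had log2 changes of 0.06 and -0.13 (blocked adjusted p 0.611 and 0.0961, limma). Gcat overlaps Galr3 by 647 bases, which were not counted. Tdh, threonine dehydrogenase, had 5 reads over the 6 libraries, 4 in TNF 1 and 1 in Control 3, and was not tested.

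The enzymes were also grouped by compartment, which had no part in choosing them. Of 23 cytosolic genes 14 fell and 1 rose (median -0.26), and of 24 tested mitochondrial genes 16 fell and 1 rose (median -0.18). Over all tested genes 11.2% fell and 9.4% rose. The difference between compartments was not tested. Summed over each route, levels with TNF were 67.0% of Control for tryptophan, 71.7% for lysine, 72.9% for histidine, 82.2% for the transaminases and 83.1% for tyrosine. They were 85.0% for the choline side chain, 87.4% for methionine and cysteine, 89.4% for proline, 90.9% for the branched-chain group and 95.2% for serine, threonine and glycine. Such sums weigh genes by their reads, so Tdo2 carries most of the tryptophan sum. Over all 49 genes the sum was 4408, 4586 and 3971 CPM in TNF 1, 2 and 3, against 5142, 5673 and 4637 CPM in Control 1, 2 and 3. That was 85.7%, 80.8% and 85.6% of Control in the 3 pairs.

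**Figure D5:**
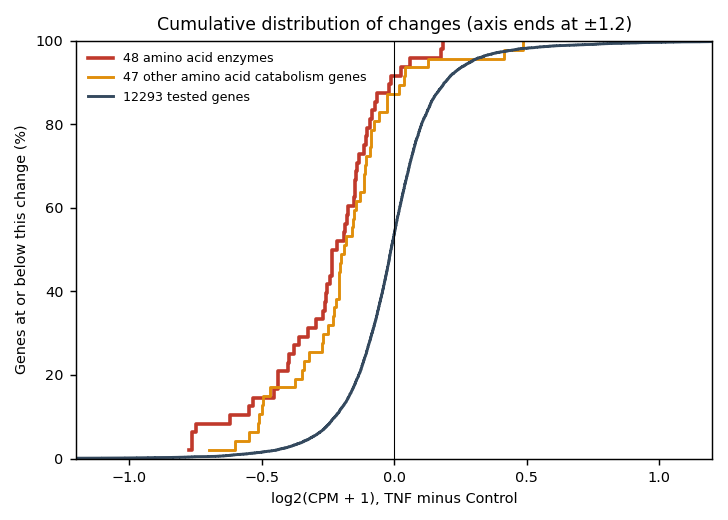
Cumulative share of genes (y axis, %) at or below each change (x axis, log2(CPM + 1), TNF minus Control) for the 48 tested amino acid enzymes, 47 further genes of the same routes and all 12293 tested genes. The 2 pathway curves run left of the curve of all genes, with medians of -0.23, -0.19 and -0.01.

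A further 48 genes of the same routes came from a list drawn up by pathway, with earlier results of these data known. Their log2 changes were -0.70 to 0.49, against -0.77 to 0.18 for the 48 enzymes. Of the 47 tested 26 fell (55.3%), 3 rose (6.38%) and 18 did not pass in the blocked fit. Over all tested genes 11.2% fell and 9.4% rose. The unpaired fit called 0 of the 47, as did limma-voom without the block. At an unadjusted p below 0.05 the unpaired fit had 14 lower and 1 higher, against 4.31% and 4.44% of all tested genes. The largest falls were those of Ido2, a second tryptophan-opening enzyme, Ccbl1, a kynurenine transaminase, Csad, which makes hypotaurine from cysteine sulfinate, and Upb1, of beta-alanine formation. Ido2 was at 7.82 ± 1.55 CPM with TNF and 13.4 ± 2.73 CPM in Control (log2 -0.70) and Ccbl1 at 108 ± 23.4 CPM with TNF and 164 ± 31.7 CPM in Control (log2 -0.60). Csad was at 35.6 ± 8.90 CPM with TNF and 51.7 ± 5.00 CPM in Control (log2 -0.55) and Upb1 at 31.7 ± 2.65 CPM with TNF and 46.1 ± 7.52 CPM in Control (log2 -0.52), all as mean ± SD of 3 libraries. The 3 that rose were Aadat, another kynurenine and aminoadipate transaminase, Cdo1, which oxidises cysteine, and Mat2a, the methionine adenosyltransferase outside adult liver. Aadat was at 23.2 ± 1.55 CPM with TNF and 16.3 ± 0.988 CPM in Control (log2 0.49), Cdo1 at 655 ± 111 CPM with TNF and 494 ± 102 CPM in Control (log2 0.42) and Mat2a at 243 ± 11.8 CPM with TNF and 222 ± 8.80 CPM in Control (log2 0.13).

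The authors' deposited table gave an adjusted p below 0.05 for 31 of the 49 enzymes as lower and 2 as higher, against 8.32% lower and 6.85% higher of all 19764 genes in that table. These included all 32 enzymes called with the block. The remaining one was Afmid, with an adjusted p of 0.0487 in the authors' deposited table.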

How the data were processed

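Reads were aligned with STAR 2.6.1a to mm10, per the submitters' processing notes. The counter, annotation, strand setting and the authors' model were not given in the sources used here. Per the file headers, the authors deposited log2 CPM per library, a log2 fold change and for each gene a likelihood ratio (a score) with its p-value, raw and adjusted. The deposited log2 values share a floor. With it subtracted, 100.0% of 118584 values were whole reads within 0.001 reads. Counted length equalled the gene span in 85.0% of genes, so introns were counted, and levels are not compared between genes.

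Because the deposited unit was log2, limma 3.58.1 (R 4.3.3, trended prior, two-sided, Benjamini-Hochberg at 0.05) was fitted to log2(CPM + 1), group only, over 12293 genes with 10 scaled reads in 3 libraries and 15 in total. Fold changes on this scale understate changes of low genes. The count tests foreseen were not run, and limma-voom on recovered reads took their place. Alternatives were the replicate block, voom, a pseudocount of 0.1, other filters, median-of-ratios scaling, the deposited values and leaving out libraries.

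Deviations of same-numbered libraries from their group means correlated at 0.78, 0.79 and 0.79 (0.92, 0.86 and 0.95 over the enzymes), so the numbers were taken to pair samples. Other pairs correlated at -0.47 to -0.34. Deviations cancel out within a group, so these negative values follow from the positive ones and add nothing. The pairing rests on titles and the same-numbered values. No libraries were duplicates.

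Members and lists were chosen with earlier results of these data known. Values in every library are given for enzymes past 0.05 in either fit and for Tat, Tdo2, Hal, Sds, Gpt, Cbs, Bckdha, Gldc, Mat1a and Agxt. Of the further pathway genes, the 4 largest changes past the blocked threshold in each direction are named. The floor of 3 reads covers counting error only. The 95% intervals plotted come from the blocked fit.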

Additional observations from a re-analysis of the deposited data

How the results depend on the processing

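The unpaired fit called 0 of the 48 enzymes, 53 of all genes and 0 of the further pathway genes. With the replicate block these were 32, 2530 and 29, and with voom and the block 32, 2520 and 31. A pseudocount of 0.1 called 1 enzyme, Hal (adjusted p 0.0492, limma), and 32, 2497 and 29 with the block. A filter at 1 CPM called 1, again Hal (0.0439, limma), and 32, 2516 and 29 with the block. The deposited log2 values called 1, Hal (0.0493, limma), and 32, 2496 and 29 with the block. Median-of-ratios scaling with the block called 30, 2572 and 29. Without a filter 31 of all genes were called unpaired, and 22, 1743 and 26 with the block, with more genes tested. Leaving out 1 library, with fewer samples, gave 0 enzymes, 9 to 30 of all genes and 0 further genes. Leaving out a replicate number with the block gave 24 to 32, 1781 to 2288 (2192 without replicate 3) and 26 to 27. The enzyme count with the block was 32, 24 and 27 without replicates 1, 2 and 3, where 1 residual degree of freedom is left and SEs rest on variance shared between genes. The median change stayed negative, between -0.26 and -0.16, in every setting. With the block, 21 of 32 enzymes were called in all 9 alternatives.

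Signs changed for 12 enzymes, none of them in a setting that kept all libraries. Leaving out libraries gave log2 ranges of -0.51 to 0.082 for Tat, -0.54 to 0.010 for Gnmt, -0.43 to 0.021 for Afmid, -0.37 to 0.19 for Haao and -0.40 to 0.17 for Kynu. Ranges were -0.44 to 0.28 for Gldc, -0.36 to 0.13 for Sds, -0.081 to 0.19 for Sdsl and -0.20 to 0.14 for Agxt. They were -0.18 to 0.11 for Dbt, -0.11 to 0.055 for Prodh and -0.077 to 0.11 for Got1. With the block and a pair left out, the range was -0.044 to 0.0070 for Prodh (0.0039 without replicate 1), -0.052 to 0.018 for Dbt, -0.28 to 0.027 for Haao, -0.23 to 0.066 for Sds and -0.15 to 0.021 for Agxt. The cause was not tested.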

Other observations

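The further genes of these routes, counted by route in the blocked fit, are given here as values. In that fit 11.2% of all tested genes fell and 9.4% rose. In tyrosine breakdown and pterin recycling, Gstz1, Qdpr and Pcbd1 fell, with log2 changes of -0.32 to -0.18. Of 5 tryptophan genes 4 fell and Aadat rose. Of 5 lysine genes 4 fell, among them Dhtkd1, a subunit of the 2-oxoadipate dehydrogenase (log2 -0.50). In the choline side chain Chdh, choline dehydrogenase, fell (log2 -0.51), and in hydroxyproline breakdown so did the aldolase Hoga1 (log2 -0.50). Of 11 branched-chain genes 3 fell, Aldh6a1, Mcee and Auh (log2 -0.34, -0.27 and -0.21). Of 10 methionine and cysteine genes 5 fell, and Cdo1 and Mat2a rose. Genes named here beyond the 7 named above were chosen after their values were seen, and differences between routes were not tested.

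Some neighbours on a chromosome are in the same route. Bhmt2, which remethylates homocysteine, lies 133 bases from Dmgdh on chromosome 13, and both fell (log2 -0.47 and -0.26). Bhmt, whose sequence is close to that of Bhmt2, lies on the other side of Bhmt2 and did not pass (log2 -0.30). Mpst and Tst, sulfurtransferases of cysteine breakdown 852 bases apart on chromosome 15, both fell (log2 -0.21 and -0.20).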
